A study of Mus musculus with 54 samples.

Results

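The genes described here are the heat shock proteins and their partner chaperones in mouse liver, followed over the day in animals with and without the clock gene Bmal1. A list of 45 genes was applied to the expression table, and a gene was kept if its FPKM (read fragments divided by transcript length and library size) averaged at least 1 over all 54 livers. This kept 44 of 45 listed genes, out of 24346 genes in the table. Hspa1a lay just outside with a mean of 0.462 FPKM, and the lowest genes inside were Cryab with 3.27, Hspa1b with 3.82, Dnaja4 with 4.17 and Hspa4l with 4.40 FPKM. The list is named for the cytosol, but 5 of its genes (Hspd1, Hspe1, Hspa9, Dnaja3 and Trap1) encode chaperones of the mitochondrion.

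RE livers came from mice in which a floxed STOP in Bmal1 was crossed with Syt10-Cre, so that Bmal1 is restored in the suprachiasmatic nucleus, the central clock of the brain. KO livers came from mice with the floxed STOP and no such rescue, and WT livers from mice that express Bmal1 in every tissue. RE and KO share the STOP allele in the liver, and the Cre driver is that of Syt10, a gene of nerve cells. The sources used here give no age, sex, strain or lighting. Each genotype was sampled at ZT0, ZT4, ZT8, ZT12, ZT16 and ZT20 (Zeitgeber time, in hours), with 3 livers in each of the 18 groups. Livers are called by genotype, time and column number, which runs from 0 to 2.

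Heat shock proteins bind unfolded or unstable proteins. HSP70 takes up clients with the help of J proteins and releases them when exchange factors swap its nucleotide, HSP90 finishes the folding of kinases and steroid receptors, and the TRiC ring folds actin and tubulin. Many of these genes are switched on together by the transcription factor HSF1, which binds heat shock elements (inverted repeats of GAA) in their promoters when unfolded protein accumulates or temperature rises. In liver HSF1 activity is known to follow the daily cycle of body temperature and feeding.

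Total FPKM per liver ran from 572995 to 751399, with 14654 to 15810 genes above 0, and none of the 44 genes was listed at 0 in any liver. Arntl, the symbol under which Bmal1 is listed, ranged from 7.60 to 15.5 FPKM in RE livers, from 9.76 to 14.2 in KO livers and from 0.202 to 10.3 in WT livers. These values cover the whole gene and check nothing of the STOP allele. The livers express the hepatocyte markers at a summed level of 52282 FPKM or more. The median standard deviation within a group over all tested genes was 0.20 in RE, 0.17 in KO and 0.13 in WT (log2), so RE livers were the most variable. In bulk tissue, fewer cells of a type and less RNA per cell cannot be told apart.

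The promoters shown here are those whose heat shock elements can be set beside the values that follow. RefSeq promoters (GRCm38.p6, 250 bases before to 50 after the gene's start) were matched for 35 of the 44 genes, and Hsf1, Hsp90aa1, Hsp90ab1, Ppid, Hspa8, St13, Cryab, Hspa9 and Cct4 had no entry. A heat shock element of 2 units was searched as GAANNTTC or TTCNNGAA, and one of 3 units as the run of GAA, TTC and GAA with NN between them, or TTC, GAA and TTC on the other strand, which contains the shorter one. Positions count from the start of the gene, all sequences run 5′ to 3′ on the gene's own strand, and capitals mark the matches. The first 4 windows hold a 3-unit match, and the Hspb1 and Hspa1b windows hold 2-unit matches. They belong to the chaperonin gene Hspe1, the J protein gene Dnajb6, the HSP110 gene Hsph1, the HSP90 partner gene Chordc1, the small heat shock protein gene Hspb1 and the inducible HSP70 gene Hspa1b.
Hspe1, chr1:55088053-55088082, plus strand: ggtccgTTCTAGAACCTTCCGGAAggcccc
Dnajb6, chr5:29735844-29735873, plus strand: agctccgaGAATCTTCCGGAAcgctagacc
Hsph1, chr5:149636279-149636303, minus strand: agaTTCTGGAAAGTTCtcctcagta
Chordc1, chr9:18292261-18292288, plus strand: cgGAACGTTCGGGAAAATTCCTGAAgca
Hspb1, chr5:135887789-135887848, plus strand: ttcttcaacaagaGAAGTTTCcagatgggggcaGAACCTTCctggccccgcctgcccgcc
Hspa1b, chr17:34959294-34959363, minus strand: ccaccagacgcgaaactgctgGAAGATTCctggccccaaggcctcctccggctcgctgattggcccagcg

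A 3-unit element stood in the promoters of 5 of the 35 genes (14.3%), against 0.662% of all 27025 genes with a promoter. The 5 were Chordc1, Hsph1, Dnajb6, Hspd1 and Hspe1; Hspd1 and Hspe1 are read outward from a shared stretch, so the Hspe1 window serves both. Each of the 5 had a 24 h rhythm in WT, as did 22 of the 35 genes with a promoter. A 2-unit element was found in 16 of 35 (45.7%), against 17.0% of all genes. The E-box CACGTG, the sequence that BMAL1 and its partner bind, was in 3 of 35 (Hsf2, Hsph1 and Hspd1) (8.57%) and in 8.09% of all genes. The CCAAT box (CCAAT or ATTGG) was in 14 of 35 (40%) and in 41.1% of all genes. A match is a run of letters in this window and no measure of binding.

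The constitutive HSP70 gene Hspa8 was the most abundant by far per transcript length. It averaged 747.8 FPKM over all livers and made up 21.6% of the summed FPKM of the 44 genes. The constitutive HSP90 gene Hsp90ab1 followed with 344.1 FPKM, then the mitochondrial chaperonin pair Hspe1 with 287.8 and Hspd1 with 253.5, mitochondrial HSP70 Hspa9 with 189.3 and the small heat shock protein Hspb8 with 112.5. Those 6 genes averaged above 100 FPKM, 37 of 44 above 10 and 7 below 10. The stress-inducible HSP70 gene Hspa1b was among the lowest. Processed pseudogenes resemble Hspa8, Hspd1 and Hspe1, so some of their reads may be uncertain. Exons of Dnaja1 overlap Smu1 on the opposite strand by 608 bases, those of Cryab overlap Hspb2 by 252, those of Cct7 overlap Pradc1 by 214, those of Cct8 overlap Usp16 by 192 and those of Hspd1 overlap Hspe1 by 112. Exons of Dnajb6 also overlap those of Gm5129.

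A 24 h rhythm was tested in each genotype with limma's moderated F test of a cosine and a sine over the 6 times, on log2(FPKM + 1). Its amplitude runs from mean to peak on that log2 scale, and a gene was called where its p, adjusted over all tested genes, was under 0.05. In RE 33 of the 44 genes were called, in KO 0 of 44 (9 with array weights) and in WT 27 of 44. Over all 10932 tested genes the shares called were 46.8% in RE, 0.0366% in KO and 34.8% in WT. KO had 15 of the 44 genes at an unadjusted p under 0.05 (11.9% of all genes), with a smallest adjusted p of 0.185. The median amplitude of the 44 genes was 0.19 in RE, 0.11 in KO and 0.21 in WT, and over all tested genes it was 0.16, 0.08 and 0.14 in the same genotypes. The RE count depends on the spread assumed: with the RE livers fitted alone, 20 of 44 were called, 17 of which were also called in WT.

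**Figure D1:**
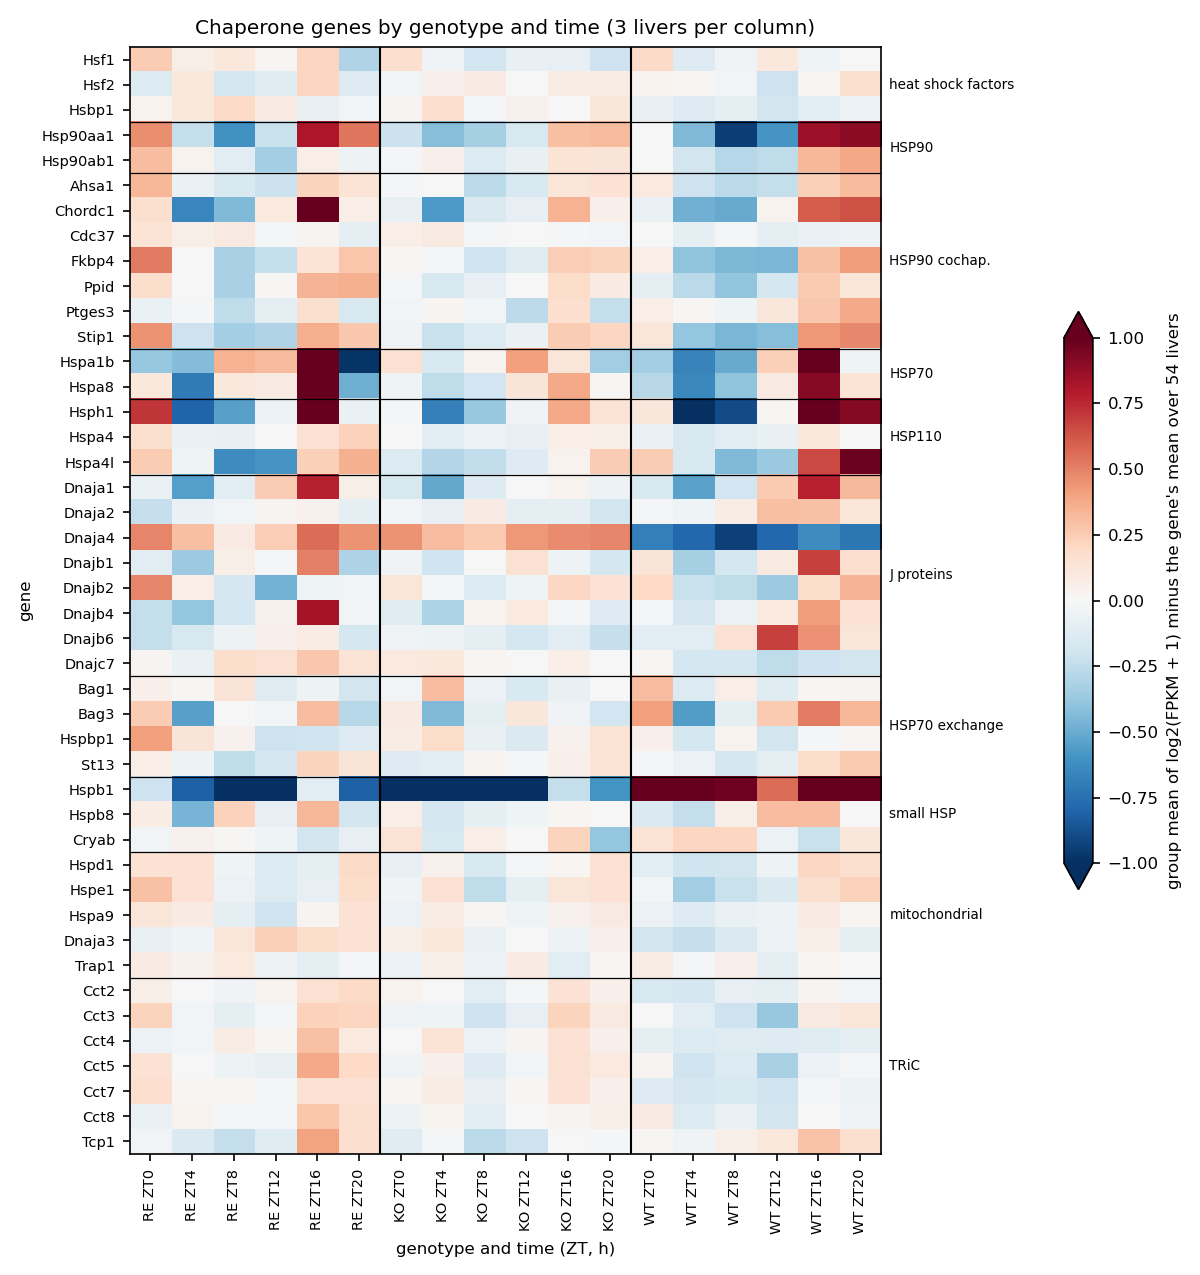
Mean log2(FPKM + 1) of each of the 44 genes at each time, less the gene's mean over all 54 livers, with RE, KO and WT blocks from left to right, times from ZT0 to ZT20 within each block and genes ordered by role; the colour scale runs from -1 to 1, and values beyond it take the end colours. The high values of most genes lie at ZT16 and ZT20 in WT, at ZT16 and ZT0 in many RE rows, and are pale in KO, while Hspb1 and Dnaja4 differ from WT at every time.

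The called genes peaked in the later part of the cycle, in the night by the usual ZT convention. In RE 29 of 33 called genes peaked between ZT12 and ZT24, and in WT 27 of 27 did, against 49.2% of all genes called in RE and 49.4% of all genes called in WT. The window from ZT15 to ZT21 held 15 of 33 called genes in RE and 21 of 27 in WT, against 30.2% of all genes called in RE and 23.8% of all genes called in WT. In all, 23 genes were called in both, which is 69.7% of the RE calls and 85.2% of the WT calls. Among these 23 the RE amplitude was below the WT amplitude in 16, the RE peak was within 3 h of the WT peak in 18, and the median shift was 0.29 h later in RE. Over all genes 46.8% were called in RE and 34.8% in WT. Their overlap, amplitudes and peak shifts were not counted, so these counts are not shown to be particular to the chaperone genes. Bag3, Hspb1, Hspb8 and Ptges3 were called in WT and not in RE, and Hsbp1, Hspa4, Dnajc7, Hspbp1, Hspa9, Dnaja3, Trap1, Cct2, Cct4 and Cct8 in RE and not in WT. A call in one genotype and not in another is no test of a difference, which is given gene by gene below.

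**Figure D2:**
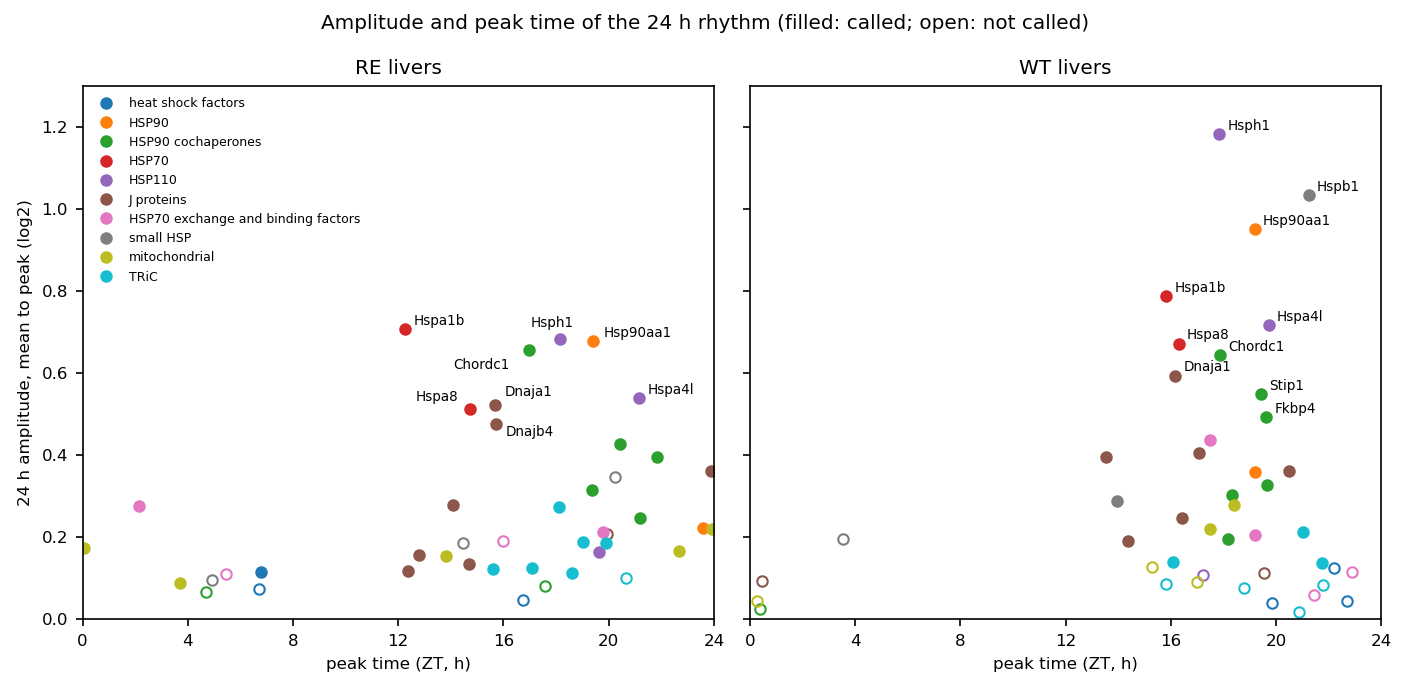
Peak time (ZT, in h) against 24 h amplitude (log2, mean to peak) of the 44 genes, with RE on the left and WT on the right; filled points were called and open points were not. In WT the called genes crowd between ZT13.5 and ZT21.8, while in RE they are more spread and 4 peak before ZT12.

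The regulators of the response showed little daily change in RNA. Hsf1, which encodes the main heat shock factor, ran from 3.61 to 7.25 FPKM in RE (median 5.99), from 3.71 to 6.87 in KO (median 5.23) and from 4.85 to 8.86 in WT (median 5.47), so the 3 genotypes overlapped. Its amplitude was 0.074 in RE (SE 0.052, adjusted p = 0.455), 0.087 in KO (adjusted p = 0.681) and 0.039 in WT (adjusted p = 0.824; limma in each case). The related factor Hsf2 had amplitudes of 0.046, 0.018 and 0.12 in RE, KO and WT and was called in none. Hsbp1, whose product binds heat shock factor and restrains it, was called in RE with an amplitude of 0.12 at ZT6.77 (adjusted p = 0.0204), a call that ended with the RE livers alone (0.0983) and without RE ZT4 liver 2, RE ZT20 liver 0 or RE ZT20 liver 1 (up to 0.0613).

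Hspa8, the constitutive HSP70, peaked sharply at ZT16 in RE and WT. At ZT16 it read 1697, 1238 and 1460.2 FPKM in RE livers, 667.0, 813 and 1389 in KO livers and 1235, 1294 and 1422 in WT livers. At ZT4 it read 437, 326 and 554 FPKM in RE, 864, 609 and 383 in KO and 472, 405 and 466 in WT. Every ZT16 liver lay above every ZT4 liver in RE and in WT, while in KO the ZT4 and ZT16 livers overlapped. The amplitude was 0.51 in RE (SE 0.10, peak ZT14.7, adjusted p = 0.000477), 0.27 in KO (adjusted p = 0.383) and 0.67 in WT (SE 0.10, ZT16.3, adjusted p = 1.09e-05). The difference of the KO rhythm from WT was 0.40 and did not pass (adjusted p = 0.159), nor did that of RE (0.29, adjusted p = 0.331).

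Hspa1b, the stress-inducible HSP70, had low levels and a wide spread. At ZT16 it read 7.71, 7.07 and 9.50 FPKM in RE, 2.53, 3.62 and 5.28 in KO and 5.09, 7.70 and 16.2 in WT. At ZT20 it read 0.903, 1.83 and 0.942 FPKM in RE, 3.14, 1.72 and 2.48 in KO and 2.53, 3.60 and 3.49 in WT. The RE livers were thus above all KO livers at ZT16 and below all WT livers at ZT20, and 1 WT liver at ZT16 was higher than any other. The rhythm was called in RE (0.71, SE 0.15, peak ZT12.3, adjusted p = 0.000678) and in WT (0.79, SE 0.15, ZT15.8, adjusted p = 0.000213) and not in KO (0.20, adjusted p = 0.778). The KO rhythm differed from WT by 0.73 (SE 0.21, adjusted p = 0.0450), a call that ended with a pseudocount of 0.1 (adjusted p = 0.0542), without a filter (0.0793) or without any 1 of 27 livers (up to 0.127). Hspa1b and Hspa1a are near-identical neighbouring copies on chromosome 17, so the division of reads between them is uncertain.

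The HSP110 family, whose members exchange nucleotide on HSP70, held the largest WT amplitude. Hsph1 read 38.5, 28.2 and 27.3 FPKM at ZT16 in RE, 12.4, 19.9 and 26.1 in KO and 27.1, 33.8 and 40.8 in WT. At ZT4 it read 6.90, 6.62 and 9.69 FPKM in RE, 9.65, 10.05 and 6.03 in KO and 6.59, 5.71 and 5.96 in WT. The ZT16 livers were above the ZT4 livers in each genotype, with the narrowest gap in KO. At ZT20 the 3 RE livers had 11.8, 10.5 and 19.2 FPKM, all below the 3 WT livers with 22.7, 26.2 and 34.4 FPKM (difference -0.98, limma adjusted p = 0.0251). The amplitude was 0.68 in RE (SE 0.12, peak ZT18.1, adjusted p = 0.000142), 0.46 in KO (adjusted p = 0.188) and 1.18 in WT (SE 0.12, ZT17.8).

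The KO rhythm of Hsph1 differed from WT by 0.73 (SE 0.17, adjusted p = 0.0135), while the difference of RE from WT was 0.50 and did not pass (adjusted p = 0.0995). Hspa4l followed later, with amplitudes of 0.54 in RE (peak ZT21.2, adjusted p = 1.49e-05) and 0.72 in WT (ZT19.7, adjusted p = 3.67e-08). It had 0.24 in KO (adjusted p = 0.324), and its KO rhythm differed from WT by 0.50 (SE 0.11, adjusted p = 0.0106). Its sister gene Hspa4 was called in RE (0.16, ZT19.6, adjusted p = 0.00887), where the call ended with the RE livers alone (0.121), and not in WT (0.11, adjusted p = 0.133).

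Of the HSP90 genes, the inducible Hsp90aa1 had the wider daily range. At ZT16 it read 171, 135 and 115 FPKM in RE livers, 74.3, 95.7 and 129.6 in KO livers and 104, 163 and 174 in WT livers. At ZT8 it read 49.5, 37.1 and 73.3 FPKM in RE, 61.2, 92.3 and 42.4 in KO and 40.3, 38.6 and 42.3 in WT. The ZT16 livers lay above the ZT8 livers in RE and WT and overlapped them in KO. The amplitude was 0.68 in RE (SE 0.11, peak ZT19.4, adjusted p = 2.68e-05), 0.40 in KO (adjusted p = 0.190) and 0.95 in WT (SE 0.11, ZT19.2). The KO rhythm differed from WT by 0.60 (SE 0.15, adjusted p = 0.0209), a call that ended without KO ZT8 liver 1 (0.0642).

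The constitutive Hsp90ab1 kept a rhythm in RE but at another time of day. At ZT20 it read 297, 259 and 455 FPKM in RE, 415, 329 and 373 in KO and 439.7, 396 and 501 in WT. At ZT0 it read 434, 388 and 439 FPKM in RE, 351, 339 and 321 in KO and 378, 325 and 313 in WT. All 3 RE livers at ZT0 were above all 3 WT livers, and at ZT20 the RE livers had both low and high values. The amplitude was 0.22 in RE with a peak at ZT23.6 (adjusted p = 0.00876), 0.11 in KO (adjusted p = 0.604) and 0.36 in WT with a peak at ZT19.2 (adjusted p = 5.04e-05). The RE peak was 4.40 h later than the WT peak, and the RE rhythm differed from WT by 0.34 (SE 0.084, adjusted p = 0.0157). With the RE livers alone the RE rhythm of Hsp90ab1 was not called (adjusted p = 0.0850).

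**Figure D3:**
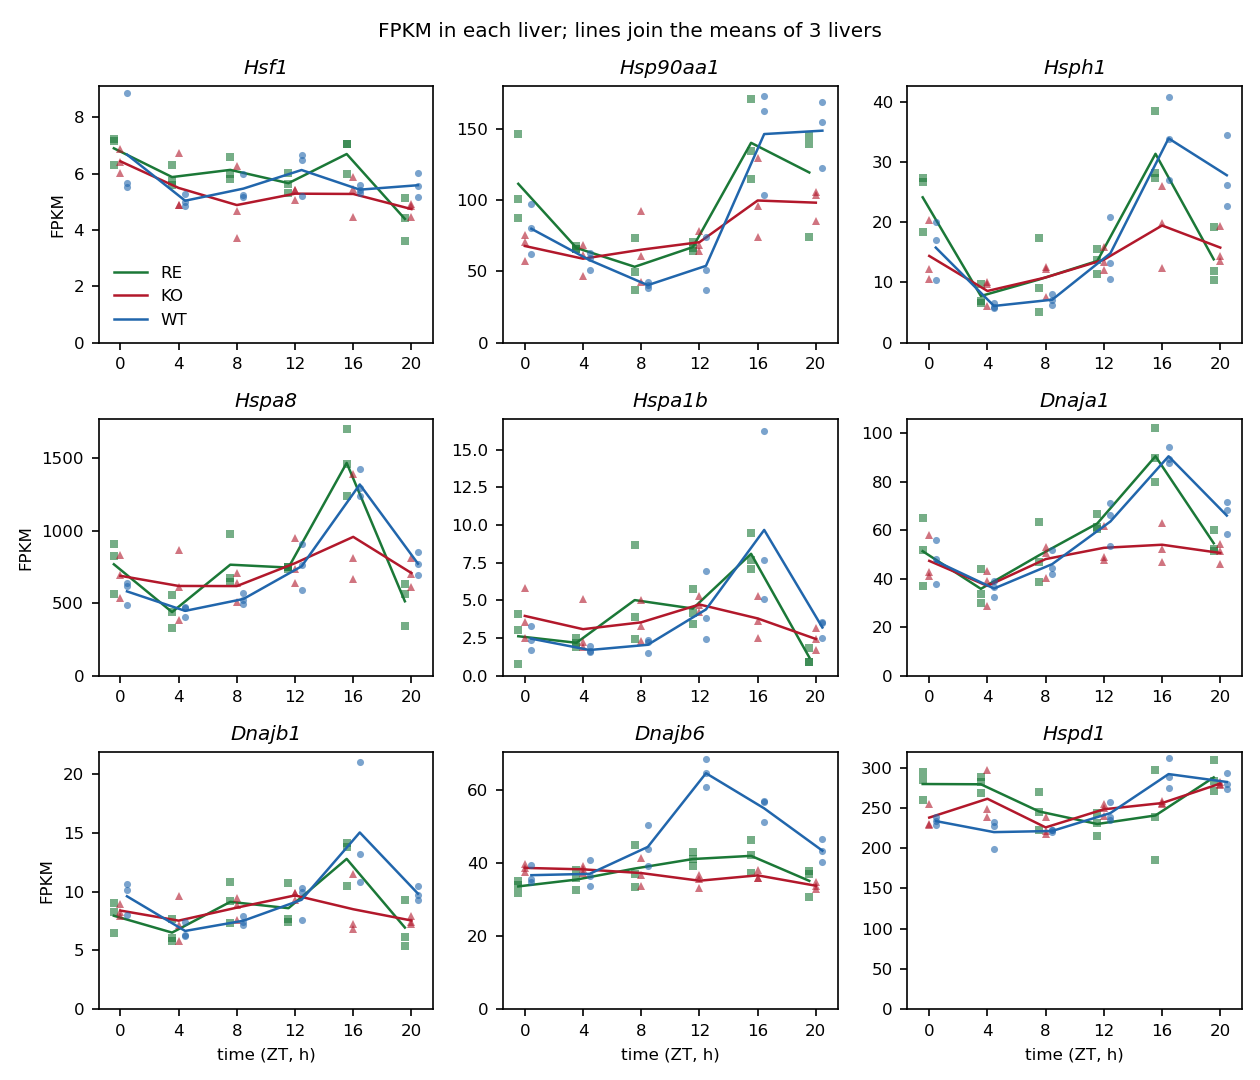
FPKM of each liver against ZT for Hsf1, Hsp90aa1, Hsph1, Hspa8, Hspa1b, Dnaja1, Dnajb1, Dnajb6 and Hspd1, with RE as green squares, KO as red triangles and WT as blue circles; lines join the means of 3 livers. RE and WT rise together towards ZT16 in Hspa8, Dnaja1 and Hsph1, KO stays flatter, the Dnajb6 course of WT stands above both other genotypes at ZT12, and Hsf1 shows no common course.

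The cochaperones of HSP90 were called in 5 of 7 cases in RE, 0 of 7 in KO and 6 of 7 in WT. The shares over all genes were 46.8%, 0.0366% and 34.8%. Chordc1, which encodes a zinc-binding HSP90 partner, had the smallest adjusted p of all 44 genes in RE (amplitude 0.66, SE 0.090, peak ZT17.0, adjusted p = 4.54e-06) and nearly the same amplitude in WT (0.64, ZT17.9). It read 35.4, 29.1 and 37.04 FPKM in RE livers at ZT16, 17.9, 19.6 and 25.1 in KO livers and 23.7, 26.1 and 24.9 in WT livers. The RE livers were above all others at that time. Stip1, which bridges HSP70 and HSP90, had 0.43 at ZT20.4 in RE and 0.55 at ZT19.4 in WT. The immunophilin Fkbp4 had 0.39 at ZT21.8 in RE and 0.49 at ZT19.6 in WT, and Ppid, another immunophilin, had 0.31 at ZT19.4 in RE and 0.30 at ZT18.3 in WT. Ahsa1, the activator of the HSP90 ATPase, had 0.25 in RE and 0.33 in WT.

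The kinase-specific cochaperone Cdc37 was called in no genotype (0.066 in RE, 0.050 in KO and 0.024 in WT), unlike the others of its group. Ptges3, which encodes the p23 cochaperone, was called in WT alone (0.19, adjusted p = 0.0410), a call that ended without a filter (0.0618) and without any 1 of 10 livers (up to 0.0957). The test of a rhythm difference from WT passed for none of the 7 cochaperones, in RE or in KO.

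J proteins carry clients to HSP70 and stimulate its ATPase. They were called in 7 of 8 cases in RE, 0 of 8 in KO and 6 of 8 in WT (46.8%, 0.0366% and 34.8% of all genes). Dnaja1 at ZT16 read 102, 89.6 and 79.7 FPKM in RE, 52.3, 46.9 and 62.8 in KO and 94.4, 89.3 and 87.6 in WT. The KO livers were below all RE and WT livers at that time. Its amplitude was 0.52 in RE (SE 0.073, peak ZT15.7, adjusted p = 5.31e-06), 0.22 in KO (adjusted p = 0.317) and 0.59 in WT (SE 0.073, ZT16.2, adjusted p = 1.88e-07). The KO rhythm differed from WT by 0.38 (adjusted p = 0.0387), a call that ended without a filter (0.0626) and without any 1 of 18 livers (up to 0.0970).

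Dnajb1, the principal partner of inducible HSP70, read 14.1, 10.4 and 13.8 FPKM at ZT16 in RE, 7.21, 6.80 and 11.5 in KO and 10.8, 13.2 and 21.1 in WT. Its amplitude was 0.28 in RE (adjusted p = 0.0102), 0.12 in KO (adjusted p = 0.729) and 0.41 in WT (adjusted p = 0.000288). The RE peak lay at ZT14.1 and the WT peak at ZT17.1. Its KO rhythm differed from WT by 0.40 (adjusted p = 0.0351), again a call that ended without a filter (0.0594) and without any 1 of 14 livers (up to 0.0774).

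Dnajb6, which encodes a J protein that keeps aggregating proteins soluble, had the smallest adjusted p of the 44 genes in WT. At ZT12 it read 39.1, 43.1 and 41.2 FPKM in RE, 33.1, 35.8 and 36.7 in KO and 64.7, 60.8 and 68.5 in WT. At ZT0 it read 35.1, 33.9 and 31.9 FPKM in RE, 37.5, 39.8 and 38.8 in KO and 35.7, 34.8 and 39.6 in WT. The genotypes were thus close together at ZT0, and at ZT12 the WT livers stood clear of both others. The amplitude was 0.16 in RE (SE 0.039, peak ZT12.8, adjusted p = 0.00482), 0.065 in KO (adjusted p = 0.685) and 0.40 in WT (SE 0.039, ZT13.5, adjusted p = 1.44e-09). With the RE livers alone the RE rhythm of Dnajb6 was not called (adjusted p = 0.0598).

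The rhythm of Dnajb6 differed by 0.24 between RE and WT (SE 0.055, adjusted p = 0.00721) and by 0.45 between KO and WT (SE 0.055, adjusted p = 8.75e-07), the smallest adjusted p of the 44 genes in the KO comparison. It was the one gene besides Hspb1 that passed in both comparisons. Dnaja2 had a small rhythm in WT (0.19, peak ZT14.4) that differed in KO by 0.23 (SE 0.053, adjusted p = 0.00852). Dnajb2 had the same amplitude in RE and WT (0.36 in each) but peaked at ZT23.9 in RE and ZT20.5 in WT, a rhythm difference of 0.31 (adjusted p = 0.0275) that ended without RE ZT4 liver 0 or 2, RE ZT16 liver 1, WT ZT4 liver 2 or WT ZT16 liver 2 (up to 0.0786). Dnajb4 was higher in amplitude in RE (0.48, peak ZT15.7, adjusted p = 5.87e-05) than in WT (0.25, ZT16.4, adjusted p = 0.0406), with a difference of 0.24 that did not pass (adjusted p = 0.288); its WT call ended without any 1 of 13 livers (up to 0.123). Dnaja4 was called in no genotype.

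Among the exchange and binding factors of HSP70, St13, whose product stabilises the client-bound state, had amplitudes of 0.21 in RE (peak ZT19.8) and 0.20 in WT (ZT19.2). Bag3, which couples HSP70 to autophagy, was not called in RE (0.19, adjusted p = 0.347) and was called in WT (0.44, ZT17.5, adjusted p = 0.00949), with a difference of 0.27 that did not pass (adjusted p = 0.454). The WT call ended without WT ZT16 liver 2 (adjusted p = 0.0508). Hspbp1 peaked in RE at ZT2.15 (0.28, adjusted p = 0.00244), away from the others. Bag1 was called in no genotype.

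The small heat shock protein gene Hspb1 (chromosome 5, 135887919 to 135889563, GRCm38) had the largest level difference of all 44 genes. Over 18 livers each it ran from 1.28 to 7.57 FPKM in RE (median 3.63), from 1.06 to 10.8 in KO (median 3.03) and from 8.76 to 60.8 in WT (median 18.7). RE and WT did not overlap, and KO met WT only through KO ZT16 liver 2 at 10.8 FPKM; at each of the 6 times the RE livers and the KO livers were below all WT livers. The mean was 4.19 ± 1.99 FPKM in RE, 3.43 ± 2.13 in KO and 26.3 ± 15.8 in WT (SD, n = 18 each), so the WT mean was 6.27 times that of RE and 7.67 times that of KO. The level difference was -2.26 in RE (log2, SE 0.14, adjusted p = 3.67e-17) and -2.50 in KO (SE 0.14, adjusted p = 1.67e-18; limma).

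The gap in Hspb1 was widest around the WT peak. WT livers had 60.8, 37.3 and 39.9 FPKM at ZT0 and 9.15, 8.76 and 13.8 at ZT12. WT ZT0 liver 0 had the highest summed gut markers (194.4 FPKM) and red cell markers (1031.6 FPKM) of any liver. The gut sum is mostly Fabp2: over the WT livers the sum had a median of 130.6 FPKM and Fabp2 alone 126.8 FPKM. The part of the makeup of WT ZT0 liver 0 in its Hspb1 level was not tested. The difference from WT was -2.78 at ZT0, -1.55 at ZT12 and -3.29 at ZT20 in RE, and -3.68, -1.58 and -3.07 at the same times in KO, all of them called. The rhythm had an amplitude of 0.35 in RE (adjusted p = 0.0957), 0.49 in KO (adjusted p = 0.226) and 1.03 in WT (SE 0.14, peak ZT21.2, adjusted p = 1.06e-06). The rhythm differed from WT by 0.70 in RE (SE 0.19, adjusted p = 0.0306) and by 0.86 in KO (SE 0.19, adjusted p = 0.00831). The RE difference ended with a pseudocount of 0.1 (adjusted p = 0.110), without a filter (0.0561) and without any 1 of 8 livers (up to 0.0767).

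The levels of the other small heat shock genes, Hspb8 and Cryab, did not pass the test. Hspb8, a partner of Bag3, ran from 69.4 to 189 FPKM in RE, from 64.4 to 159 in KO and from 81.0 to 146 in WT, so the genotypes overlapped. Its WT rhythm of 0.29 (adjusted p = 0.0331) ended without a filter (0.0543) and without any 1 of 8 livers (up to 0.0852). Cryab, the alpha B crystallin gene, was at or below 5.20 FPKM in every liver and was called in no rhythm or level.

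**Figure D4:**
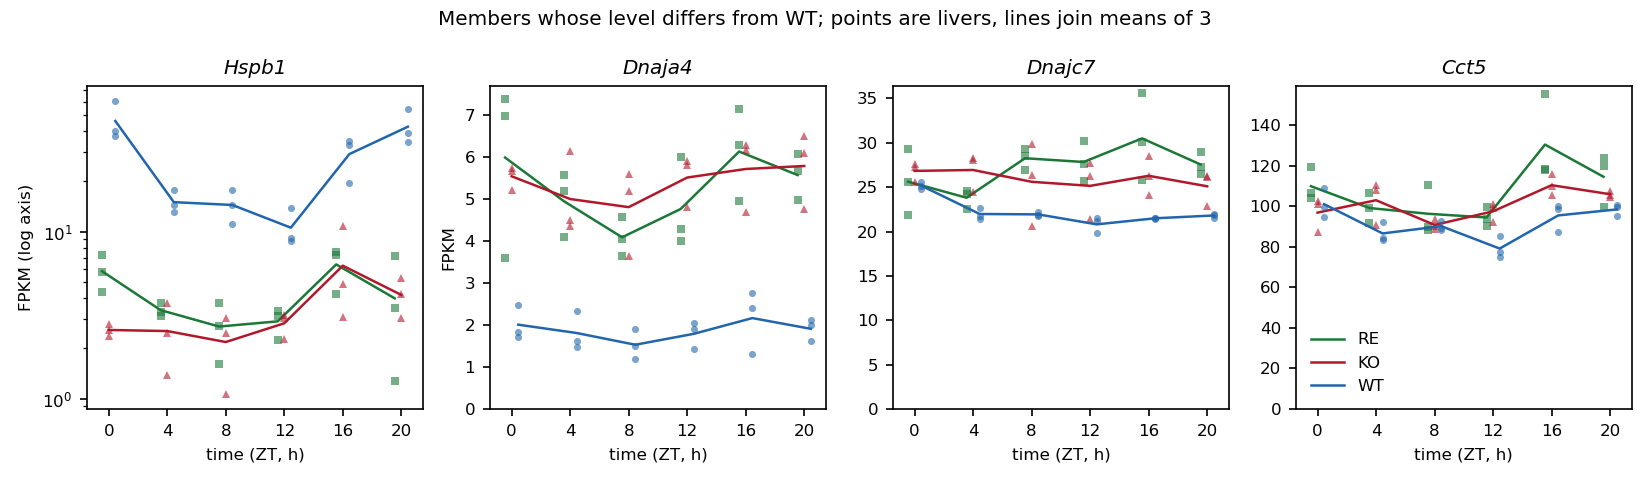
FPKM of each liver against ZT for Hspb1 (log axis), Dnaja4, Dnajc7 and Cct5, with RE as green squares, KO as red triangles and WT as blue circles. Hspb1 is lower and Dnaja4 higher in RE and KO than in WT at all 6 times, while Dnajc7 and Cct5 overlap with WT at some times.

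The mitochondrial chaperones were called in 5 of 5 cases in RE, 0 of 5 in KO and 2 of 5 in WT. Over all genes the shares were 46.8%, 0.0366% and 34.8%. Hspd1, the HSP60 chaperonin, read 288, 268 and 282 FPKM at ZT4 in RE, 248, 239 and 297 in KO and 199, 228 and 233 in WT. At ZT16 it read 297, 239 and 185 FPKM in RE, 258, 254 and 256 in KO and 275, 312 and 289 in WT. RE livers were all above WT at ZT4 (difference 0.35, adjusted p = 0.0216), and at ZT16 their mean was below WT (-0.30, adjusted p = 0.0263) with the RE livers widely spread. The amplitude was 0.17 in RE with a peak at ZT0.06 (adjusted p = 0.00258), 0.090 in KO (adjusted p = 0.506) and 0.22 in WT with a peak at ZT17.5 (adjusted p = 0.000192).

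The RE peak of Hspd1 was 6.58 h later than in WT, and the rhythm differed by 0.30 (SE 0.057, adjusted p = 0.00102). Hspe1, the HSP10 lid of that chaperonin, had a like shift: its RE peak was 5.52 h later, at ZT23.9, and its rhythm differed by 0.33 (adjusted p = 0.0232). That call ended without any 1 of 3 livers (RE ZT4 liver 0, RE ZT16 liver 2 or WT ZT16 liver 2; up to 0.0557). The RE rhythms themselves ended with the RE livers alone (adjusted p = 0.0773 for Hspd1 and 0.0512 for Hspe1). The mitochondrial HSP70 gene Hspa9 cycled in RE (0.17, peak ZT22.7, adjusted p = 0.000767) and was not called in WT (0.090, adjusted p = 0.10), with a difference of 0.18 (adjusted p = 0.0247) that ended without RE ZT12 liver 0 or 2, WT ZT0 liver 2 or WT ZT12 liver 2 (up to 0.0579). The RE calls of Dnaja3 (0.15) and of the mitochondrial HSP90 gene Trap1 (0.088) ended with the RE livers alone (adjusted p = 0.267 and 0.167).

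The 7 subunits of TRiC in the list had small rhythms. They were called in 6 of 7 cases in RE, 0 of 7 in KO and 3 of 7 in WT (46.8%, 0.0366% and 34.8% of all genes). Tcp1, the first subunit, had the clearest one in RE (0.27, SE 0.043, peak ZT18.1, adjusted p = 2.55e-05) and 0.14 in WT (adjusted p = 0.0314), where the call ended without WT ZT4 liver 0 or 1, WT ZT12 liver 2 or WT ZT16 liver 0 or 1 (up to 0.106). Cct5 had 0.19 in RE (peak ZT19.0, adjusted p = 0.000865) and 0.14 in WT (ZT21.8, adjusted p = 0.0202), where the call ended without WT ZT0 liver 0 or WT ZT12 liver 1 (up to 0.0575). Cct7 was called in no genotype. With the RE livers alone the calls of Cct2 (adjusted p = 0.154), Cct3 (0.118) and Cct4 (0.142) ended. No rhythm difference from WT passed for any of the 7 in KO or RE.

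Counted over all roles, the rhythm differed from WT in 8 of 44 genes for RE (14.1% of all genes) and in 9 of 44 for KO (9.06% of all genes). Between RE and KO it differed in 0 of 44 by limma (3.07% of all genes; 13 of 44 and 23.6% of all genes at an unadjusted p under 0.05), and the smallest adjusted p was that of Dnajb2 (0.33, adjusted p = 0.0526). The RE and KO comparisons share the WT livers. For Hsp90aa1 the difference from WT was 0.28 in RE (adjusted p = 0.393) and 0.60 in KO, for Hsph1 0.50 in RE and 0.73 in KO, and for Dnaja1 0.10 in RE (adjusted p = 0.761) and 0.38 in KO. For Hspd1 it was 0.30 in RE and 0.15 in KO (adjusted p = 0.189), and for Hsp90ab1 0.34 in RE and 0.25 in KO (adjusted p = 0.126). The KO amplitude was below the WT amplitude in 36 of the 44 genes, and in 27 of the 27 called in WT, which were chosen on the WT rhythm. Over all tested genes the median amplitude was also lower in KO (0.08) than in WT (0.14). The share of all genes with a lower KO amplitude was not counted, so the 36 of 44 is not shown to be particular to these genes.

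In KO livers 1 library stood apart. KO ZT16 liver 2 was the highest of the 18 KO livers for 14 of the 27 genes called in WT, and it also had the highest summed bile duct markers of all 54 livers (171.5 FPKM), of which Spp1 alone gave 162.9 FPKM. The count of 14 was not set beside a like count over all genes. The part of this liver's makeup in its chaperone levels was not tested. RE ZT16 liver 2 was the highest RE liver for 8 and the lowest for 2 of the same 27 genes. It had the highest summed hepatocyte markers (102632 FPKM) and stellate cell and fibroblast markers (120.8 FPKM) of all 54 livers. Its summed gut markers (20.5 FPKM) and red cell markers (59.7 FPKM) were the lowest. The part of its makeup in its chaperone levels was not tested either. Without KO ZT8 liver 1 the KO rhythm was called for 2 genes, Hsp90aa1 and Hspa4l. A 12 h component was called in 0 of 44 genes in RE, KO and WT by limma (0%, 0% and 0.247% of all genes), with 8, 1 and 3 of the 44 and 9.03%, 4.55% and 6.05% of all genes at an unadjusted p under 0.05.

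The mean level over the 6 times differed from WT in 18 of 44 genes for RE (13 higher and 5 lower; 45.9% of all genes) and in 15 of 44 for KO (8 higher and 7 lower; 42.3% of all genes). Over all genes 24.2% were higher and 21.7% lower in RE, and 22.1% higher and 20.2% lower in KO. Between RE and KO 0 of 44 differed by limma (0.192% of all genes; 5 of 44 and 13.3% of all genes at an unadjusted p under 0.05). The HSP70 and HSP90 genes themselves were called in neither comparison: the difference from WT was 0.06 in RE (adjusted p = 0.659) and 0.04 in KO (adjusted p = 0.801) for Hspa8, and 0.16 in RE (adjusted p = 0.223) and -0.05 in KO (adjusted p = 0.739) for Hsp90aa1. Hsf1 had 0.04 in RE (adjusted p = 0.514) and -0.08 in KO (adjusted p = 0.203).

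**Figure D5:**
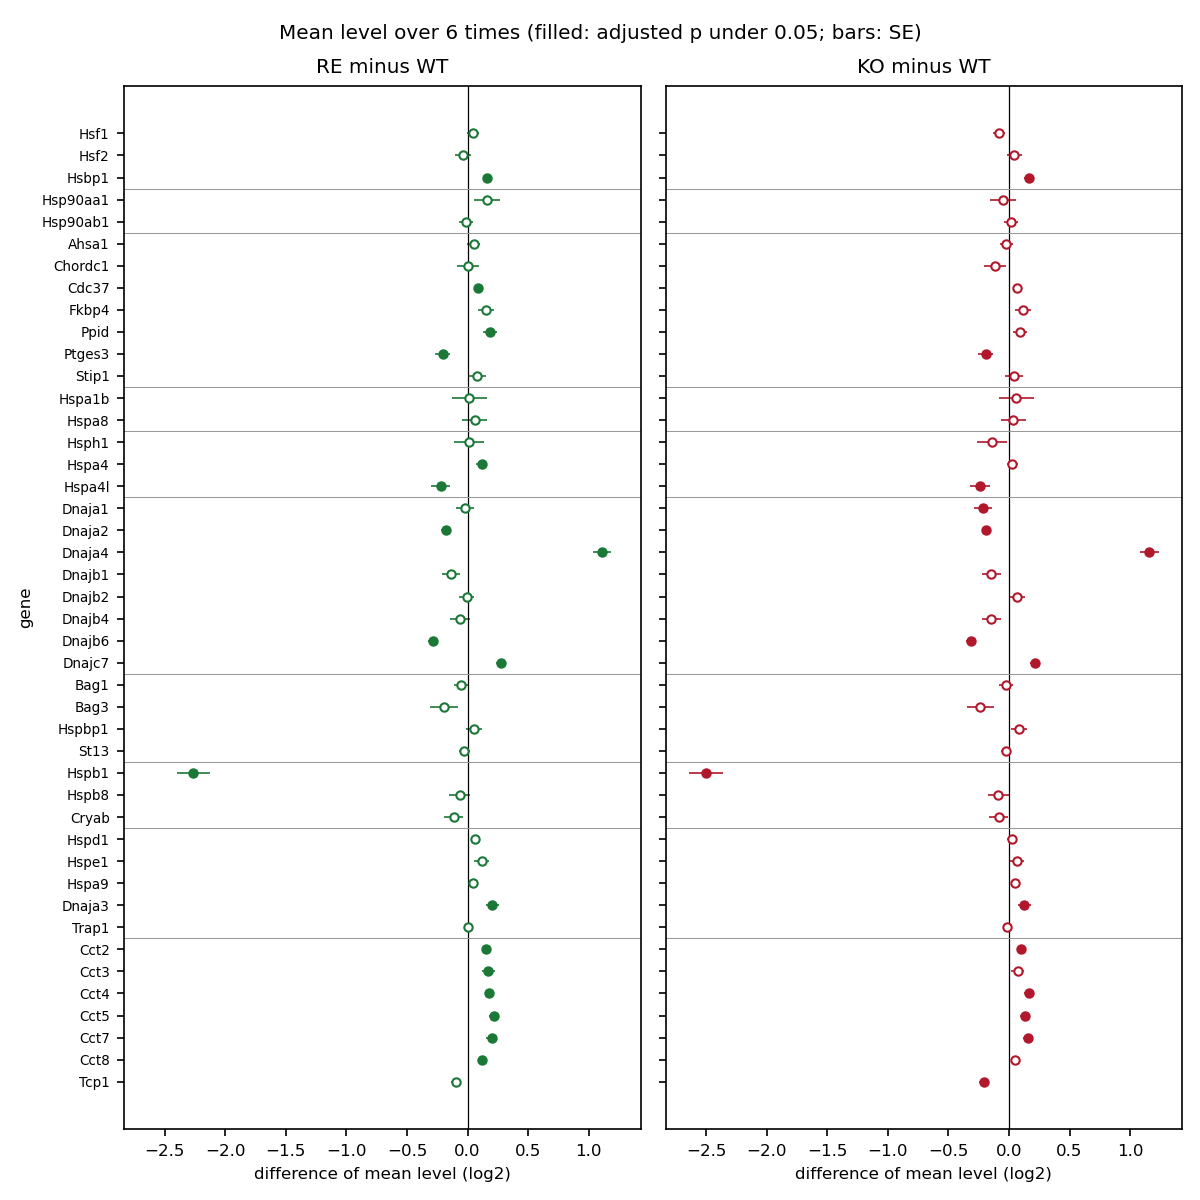
Difference of the mean level over 6 times (log2) from WT for each of the 44 genes, with RE minus WT and KO minus WT side by side and bars of 1 SE. Hspb1 lies far below 0 and Dnaja4 far above 0 in both, and the other genes lie within 0.4 of 0.

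Dnaja4, a J protein gene expressed at a low level in WT liver, was the one with the largest rise. It ran from 3.59 to 7.37 FPKM in RE (median 5.07), from 3.63 to 6.49 in KO (median 5.63) and from 1.19 to 2.76 in WT (median 1.86). No RE or KO liver overlapped any WT liver. The difference was 1.11 in RE (SE 0.075, adjusted p = 1.09e-15) and 1.16 in KO (SE 0.075, adjusted p = 3.07e-16), and it was called at each of the 6 times, between 1.01 and 1.19 in RE and between 1.09 and 1.22 in KO. The exons of Dnaja4 (chromosome 9, 54698848 to 54716317, GRCm38) overlap those of Wdr61 on the opposite strand by 1581 bases. The sources used here do not say whether counting used strand, and Wdr61 had medians of 48.1 FPKM in RE, 48.6 in KO and 46.9 in WT, with differences from WT of 0.06 (adjusted p = 0.0763) and 0.07 (adjusted p = 0.0495); its part in the Dnaja4 values was not tested.

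Other J proteins moved less. Dnajc7, which binds both HSP70 and HSP90, was higher by 0.28 in RE (adjusted p = 6.32e-07) and by 0.21 in KO (adjusted p = 5.60e-05). It ran from 21.9 to 35.6 FPKM in RE, from 20.6 to 29.8 in KO and from 19.8 to 25.6 in WT, so the genotypes overlapped. Its exons overlap those of Cnp by 154 bases on the opposite strand, and Cnp was itself higher by 1.21 in RE (adjusted p = 2.92e-18) and by 1.26 in KO (adjusted p = 7.76e-19); the part of Cnp in the Dnajc7 values was not tested. Dnajb6 was lower by 0.29 in RE and by 0.32 in KO as a mean over the day, and Dnaja2 by 0.18 in RE and by 0.19 in KO. Dnaja1 was lower in KO (-0.22, adjusted p = 0.0148), with -0.02 in RE (adjusted p = 0.843).

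The 7 TRiC subunits in the list lay mostly above WT. Cct6a, a subunit gene outside this list, had medians of 64.3 FPKM in RE, 61.3 in KO and 61.7 in WT. In RE 6 of 7 were called as higher, against 24.2% of all genes. Cct5 rose by 0.22 (limma adjusted p = 1.91e-05), Cct7 by 0.20, Cct4 by 0.18, Cct3 by 0.17, Cct2 by 0.15 and Cct8 by 0.12. Tcp1 had -0.09 (limma adjusted p = 0.0687). In KO Cct4 rose by 0.16, Cct7 by 0.15, Cct5 by 0.13 and Cct2 by 0.10, while Tcp1 was lower (-0.20, limma adjusted p = 0.000156). Over all genes 22.1% were higher and 20.2% lower in KO. Tcp1 shares 571 exonic bases with Acat3 on the opposite strand, and Acat3 was higher by 0.41 in RE and by 0.42 in KO; its part was not tested. Cct5 ran from 88.3 to 155 FPKM in RE, from 87.1 to 116 in KO and from 74.8 to 109 in WT, so these shifts are small beside the spread of livers over the day.

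Of the remaining calls, Hsbp1 was higher by 0.16 in RE and in KO, and the p23 gene Ptges3 was lower by 0.21 in RE and by 0.19 in KO. Hspa4l was lower by 0.22 in RE and by 0.24 in KO, and Dnaja3 higher by 0.21 in RE and by 0.13 in KO. In the RE comparison and not in the KO one, Ppid (0.19), Hspa4 (0.12) and Cdc37 (0.087, adjusted p = 0.0439) were called as higher. The call of Hspa4 ended without RE ZT0 liver 0, RE ZT4 liver 2, RE ZT8 liver 2, RE ZT16 liver 0 or WT ZT0 liver 1 (adjusted p up to 0.0640). Those of Cdc37 in RE and of Dnaja3 in KO ended without any 1 of 19 and 17 livers (adjusted p up to 0.0946 and 0.0738).

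At single times, 33 gene and time pairs were called between RE and WT and 33 between KO and WT. From ZT0 to ZT20 the RE comparison had 2, 4, 4, 7, 8 and 8 genes (9.39%, 7.67%, 13.4%, 18.9%, 18.7% and 11.6% of all genes). The KO comparison had 2, 6, 3, 7, 9 and 6 genes (8.65%, 11.4%, 11.5%, 18.3%, 14.6% and 9.37% of all genes). At ZT16 the KO livers were lower than WT in Hspa1b (-1.05), Dnaja1 (-0.74), Dnajb1 (-0.74), Hspa4l (-0.63), Dnajb6 (-0.57), Dnaja2 (-0.39) and Hspb1 (-2.16), and higher in Dnaja4 and Cct4. At ZT20 the RE livers were lower than WT in Hsph1 (-0.98), Hspa4l (-0.62), Ptges3 (-0.54), Hsp90ab1 (-0.44), Dnajb6 (-0.30) and Hspb1 (-3.29), and higher in Dnaja4 and Dnajc7.

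RE and KO were set against each other directly at the same times, and 4 pairs were called, all at ZT16. From ZT0 to ZT20 the comparison called 0%, 0%, 0.256%, 0.467%, 3.27% and 0% of all genes. RE livers were higher in Dnajb4 by 0.85 (adjusted p = 0.0177), in Dnaja1 by 0.74 (adjusted p = 0.0225), in Tcp1 by 0.41 (adjusted p = 0.0291) and in Cct8 by 0.25 (adjusted p = 0.0354). None of the 4 was called with the RE and KO livers fitted alone, without KO ZT16 liver 1 or without RE ZT16 liver 2, and 2 were called without KO ZT16 liver 0.

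Markers of other cell types and of tissue handling differed between genotypes beside these levels. Kupffer cell markers were lower in 6 of 6 genes in RE and 3 of 6 in KO (21.7% and 20.2% of all genes). Their median sums were 46.2 FPKM in RE, 62.2 in KO and 74.8 in WT. Bile duct markers had median sums of 64.2 FPKM in RE, 68.9 in KO and 27.5 in WT, almost all of it Spp1 (medians of 59.9, 62.2 and 22.8 FPKM in RE, KO and WT). Spp1 (1.36 in RE and 1.23 in KO) and Sox9 (0.53 and 0.47) were called as higher in both, while Krt19 (-0.21 and -0.18), Krt7 (-0.12 and -0.16) and Epcam (-0.28 and -0.31) were not called. The hepatocyte genes Ahsg, Fga and Fgb were higher in both, by 0.40 to 0.42 in RE and by 0.33 in KO. Apoa2 (0.33 in RE and 0.20 in KO) and Cps1 (0.18 and 0.23) were also higher in both, and Apoc3 in RE (0.16). Ttr was lower in both (-0.24 in RE and -0.42 in KO). Apoa1 was lower in KO (-0.26) and not called in RE (0.02), and Tat was not called in either. The endothelial gene Stab2 was higher (0.42 in RE and 0.34 in KO) and Kdr lower (-0.38 and -0.32). The other endothelial genes, Lyve1, Pecam1 and Clec4g, were not called in either. The gut marker Fabp2 (-0.56 in RE and -0.66 in KO) and the red cell gene Alas2 (-0.73 and -0.77) were lower in both. In KO the gut markers Lgals4 (-0.70) and Vil1 (-0.20) were also lower, and the fibroblast gene Col1a1 was higher (0.45). In RE these genes were not called (-0.29, -0.18 and 0.24). The gut gene Muc13, the stellate cell and fibroblast genes Lrat, Dcn, Col3a1 and Reln, and the neutrophil genes S100a8 and S100a9 were not called in either. In RE Hba-a1 (-1.39), Cd79a (-0.30) and Nkg7 (-0.37) were also lower. The red cell genes Hba-a2 (-0.97) and Hbb-bs (-1.04) were not called in RE. Over the RE livers Hba-a1 ran from 0.0744 to 168 FPKM and Hba-a2 from 0.00399 to 470 FPKM. Of the immediate early and stress genes, Jun (-0.81 in RE and -0.72 in KO), Junb (-0.79 and -0.69), Atf3 and Ier2 were lower in both and Dusp1 in RE. These were 5 of 7 tested in RE and 4 of 7 in KO (21.7% and 20.2% of all genes). The median sums of this list were 62.5 FPKM in RE, 54.4 in KO and 75.7 in WT. In WT 4 of the 7 tested cycled (34.8% of all genes). They peaked on average at ZT5.72, a mean that does not give how far apart they peaked. Pancreas and muscle markers summed to no more than 0.700 and 0.123 FPKM in any liver. Fat markers reached 4.18 FPKM in RE ZT8 liver 2, and at most 0.276 FPKM in KO and 0.318 FPKM in WT livers. The part of these cell types and of tissue handling in the chaperone values and rhythms was not tested.

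A wider list of 79 other chaperone genes was read in the same fit, and 70 of them were tested. A rhythm was called in 29 of 70 in RE (46.8% of all genes), 0 of 70 in KO by limma (8 of 70 and 11.9% of all genes at an unadjusted p under 0.05) and 24 of 70 in WT (34.8% of all genes). The rhythm differed from WT in 7 of 70 for RE (14.1% of all genes) and 7 of 70 for KO (9.06%), and between RE and KO in 2 of 70 (3.07%), Ttc1 (0.33, adjusted p = 0.0224) and Bag5 (0.33, adjusted p = 0.0274). The level differed in 26 of 70 for RE (17 higher and 9 lower; 45.9% of all genes) and in 24 of 70 for KO (14 higher and 10 lower; 42.3% of all genes). Clpx, which unfolds proteins for the protease of the mitochondrial matrix, was the clearest of them. It ran from 111.6 to 232.5 FPKM in RE (median 155.9), from 95.9 to 199.1 in KO (median 151.0) and from 16.6 to 120.7 in WT (median 56.2), with a WT rhythm of 1.22 (peak ZT22.7, adjusted p = 7.54e-18).

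The level of Clpx was higher by 1.61 in RE and by 1.53 in KO, and its rhythm differed from WT by 1.46 in RE and by 1.21 in KO. Cacybp, whose product binds HSP90-linked ubiquitin ligases, cycled in both, with 0.37 at ZT18.3 in RE and 0.38 at ZT18.8 in WT. Ahsa2, a relative of the HSP90 activator, had 0.35 at ZT19.3 in WT. Bag2, an exchange factor of HSP70, was lower by 0.56 in RE and by 0.44 in KO. The ubiquitin gene Ubb averaged 266.9 FPKM, the prefoldin subunit gene Pfdn5 163.3 FPKM and Fkbp8 157.3 FPKM over all livers.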

How the data were processed

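RNA of 54 mouse livers, 18 each of RE, KO and WT, was measured by sequencing. The deposited table holds FPKM per gene symbol, scaled by the authors for transcript length and library size. The submitters' processing notes name TopHat and the mouse build mm10; the version, the FPKM tool and its annotation do not appear in the sources used here. The table has no counts, so depth is unknown and precision rests on the spread between livers. The column numbers of livers (0 to 2) are not the replicate numbers of the titles (1 to 3), so a column is known by group and not by animal. The p values measure the spread between these livers.

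Values were analysed as log2(FPKM + 1), which understates changes of low genes. Genes with a mean FPKM of at least 1 in any of the 18 groups (10932 of 24346) were fitted in 1 limma model (limma 3.58.1, R 4.3.3, eBayes with trend, 36 residual degrees of freedom). Contrasts of that model gave the 24 h rhythm in each genotype, the rhythm difference (length of the difference of the cosine and sine vectors), the two-sided differences of level, at each time and over the 6 times, and a 12 h component. Benjamini-Hochberg adjustment ran over the tested genes, and calls were made under 0.05. The fit was tested on simulated data. Exon overlaps and coordinates are from GENCODE vM21 (GRCm38), promoters from RefSeq. Tables and figures were made with Python 3.11.15, pandas 2.3.3 and matplotlib 3.10.9.

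Alternatives were a filter at 5 FPKM or none, a pseudocount of 0.1, median scaling, the genotypes compared alone, array weights, no trend and leaving out each liver. The genes and lists were chosen with earlier results of these data known. Values per liver are given for Hsf1, Hsp90aa1, Hsp90ab1, Hspa1b, Hspa8, Hsph1, Hspb1, Dnajb1 and Dnaja1, and for genes with the smallest adjusted p in a comparison; others are given by range and count. Other chaperone genes are named for their small adjusted p or a mean above 100 FPKM, and Cct6a as a subunit of TRiC. A result that this rule selects is not reported here. Of the 79 in that list, Hikeshi was not analysed here, and protein sequences were not used here.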

Additional observations from a re-analysis of the deposited data

Results flagged for a closer look

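The size of a 24 h rhythm difference is the length of the difference of 2 rhythms on the log2 scale. Tested directly, it passed between RE and WT in 8 of 44 genes and between KO and WT in 9 of 44, by limma over all tested genes. Of all tested genes, 14.1% passed between RE and WT and 9.06% between KO and WT. Dnajb6 (0.24 between RE and WT and 0.45 between KO and WT) and Hspb1 (0.70 between RE and WT and 0.86 between KO and WT) passed in both comparisons, which share the WT livers.

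Between RE and WT the others were the chaperonin pair Hspd1 (0.30) and Hspe1 (0.33), mitochondrial HSP70 Hspa9 (0.18), Hsp90ab1 (0.34) and the J protein genes Dnajb2 (0.31) and Dnajc7 (0.22). Of these, Hspd1, Hspe1, Hsp90ab1 and Dnajb2 cycled in both genotypes and peaked later in RE, by 6.58, 5.52, 4.40 and 3.41 h. Hspa9 and Dnajc7 were called in RE and not in WT. The difference of Dnajc7 ended without RE ZT0 liver 0, RE ZT12 liver 2, RE ZT16 liver 2, WT ZT4 liver 2 or WT ZT12 liver 1 (adjusted p up to 0.0642), and its RE rhythm ended with median scaling (0.0563) and with array weights (0.0841).

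Between KO and WT the others were the HSP70 and HSP110 genes Hspa1b (0.73), Hsph1 (0.73) and Hspa4l (0.50), the inducible HSP90 gene Hsp90aa1 (0.60) and the J protein genes Dnajb1 (0.40), Dnaja1 (0.38) and Dnaja2 (0.23). The 9 genes of this comparison all cycled in WT. In KO none of the 44 genes was called as rhythmic, and 0.0366% of all genes were. With array weights 9 of the 44 genes were called as rhythmic in KO, and the rhythm difference was called in 17 genes between RE and WT and in 20 between KO and WT.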

How the results depend on the processing

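No paired analysis was possible because the columns carry other replicate numbers than the sample titles, so no replicate block was fitted. With array weights the KO rhythm was called in 9 genes, the rhythm difference in 17 genes between RE and WT, 20 between KO and WT and 9 between RE and KO, and the WT 12 h component in 2; gene and time pairs numbered 63 for RE and WT, 75 for KO and WT and 15 for RE and KO. With the genotypes compared alone, 20 genes were rhythmic in RE and 0 pairs differed between RE and KO. The RE and KO rhythm difference was called in 1 gene with a filter at 5 FPKM and in 1 with median scaling. Without 1 liver, the KO rhythm count ran from 0 to 2, the RE and KO rhythm difference from 0 to 3 and the RE and KO pairs from 0 to 6. Rhythmic genes then ran from 29 to 34 in RE and from 23 to 28 in WT, rhythm differences from 6 to 10 for RE and from 6 to 10 for KO against WT, and level differences from 16 to 20 for RE and from 14 to 16 for KO.

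Of 110 called results of single genes, 27 ended without some 1 liver and 22 under another setting, 14 of these with the genotypes compared alone, and none reversed. The cause was not tested. Depth is unknown, so low genes such as Hspa1b are limited by the spread between livers.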

Other observations

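Hspa1a, left out for its low mean, ran from 0.132 to 1.47 FPKM in RE, from 0.125 to 0.769 in KO and from 0.0323 to 1.62 in WT. Its rhythm was called in RE (0.26, peak ZT11.7, adjusted p = 0.0250) and in WT (0.28, ZT15.2, adjusted p = 0.0222) by limma and not in KO (0.026, adjusted p = 0.987). At ZT8 it was higher in RE than in WT by 0.70 (adjusted p = 0.0132).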
